A study of Mus musculus with 7 samples.

Results

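Hemoglobin transcripts and red cell genes were followed in the dorsal midbrain of newborn mice, to describe how much blood RNA each library carried and which globins made it up. The 7 genes were chosen by name for what they encode, out of 52636 genes in each count table. They are the alpha globins *Hba-a1* and *Hba-a2*, the adult beta globins *Hbb-bs* and *Hbb-bt*, the embryonic beta-type globin *Hbb-y*, the heme synthesis gene *Alas2* and the red cell membrane gene *Slc4a1*. Poly(A) RNA was sequenced from the dorsal midbrain of single mice, 3 control and 4 cKO, to find genes that change in the midbrain without the transcription factor Brn3b. Controls carried *Brn3b*^flox/+ with *En1-Cre*, and cKO mice carried *Brn3b*^flox/- with *En1-Cre*. Both genotypes therefore carried the Cre driver, which acts in midbrain and hindbrain, and a conditional allele that expresses an alkaline phosphatase reporter after recombination. The controls A2 and A6 and the cKO mice B1 and B8 were at postnatal day 4 (P4), control A4 was at P3, and the cKO mice B7 and B9 were at P2. Age and genotype were not crossed, since P2 occurred among cKO mice only and P3 among controls only.

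Hemoglobin is built from alpha-type and beta-type globin chains, each holding a heme, and its transcripts are the most abundant RNAs of maturing red cells. Mouse erythroid cells replace embryonic globins such as *Hbb-y* with adult globins during gestation, when blood formation moves from the yolk sac to the fetal liver. In brain tissue, globin transcripts are known mainly from blood in the vessels, where reticulocytes still hold RNA, and low amounts have also been described in neurons and glia.

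The libraries held from 23588248 to 87572085 counts on genes. Control A2 had 23588248 counts, A4 had 40411968 and A6 had 26577011. Among cKO mice, B1 had 28116582 counts, B7 had 67792192, B8 had 39251318 and B9 had 87572085, so the P2 libraries were the deepest. *Brn3b* was at 46.5, 47.4 and 45.8 CPM (counts-per-million of the scaled library) in the controls A2, A4 and A6. In the cKO mice B1, B7, B8 and B9 it was at 9.64, 9.66, 10.6 and 11.6 CPM, below each control. Its log2 fold change was −2.16 ± 0.13 (SE, edgeR adjusted p = 5.66e-04), in the direction of the labels in 7 of 7 libraries. The midbrain markers matched the tissue label, since all 10 genes of that list were detected and their summed level ranged from 824 to 1076 CPM. *Slc17a6*, the vesicular glutamate transporter of excitatory midbrain neurons, led them at 310.3 to 473 CPM.

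Several libraries stood apart. On the first principal component of log2 CPM, which held 60.1% of the variance, the cKO mouse B8 scored −42.2, beside the controls (−33.3, −81.2 and −42), whereas B1, B7 and B9 scored 49.4, 78.7 and 70.6. Control A4 lay farthest out on the control side and held the most hemoglobin RNA. Short genes followed the same division of the libraries: the median log2 CPM of 222 protein-coding genes with at most 1000 exon bases, relative to the control mean, was −0.14, 0.235 and −0.09 in A2, A4 and A6. Among cKO mice B8 had −0.07, near the controls, and B1 had −0.82, while B7 and B9 each had −1.21. The globin genes are short, so these values stand beside every globin comparison below.

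Hemoglobin RNA was scarce in all 7 libraries. The 4 adult globins together took 0.0153% of the counts on genes in control A2, 0.0477% in A4 and 0.0129% in A6. Among cKO mice, the P4 libraries B1 and B8 gave 0.0165% and 0.0176%, and the P2 libraries B7 and B9 gave 0.00545% and 0.00505%. The 95% Wilson intervals of these shares reached at most 0.000678 percentage points to either side, and they cover counting error only. Read pairs that aligned to more than 1 place were not counted. Of the 100-base windows of each adult globin, 54.8% to 74.5% also occur in its near-identical partner gene. The shares may therefore be too low, by an amount that was not tested. Control A4, the P3 mouse, carried 2.705 times the share of the next library, and the P2 mice B7 and B9 carried the least. The P4 mice lay close together whatever their genotype, with 0.0141% ± 0.0017 in controls (SD, n = 2) and 0.0171% ± 0.000805 in cKO mice (SD, n = 2). Each P4 library exceeded each P2 library, by at least 2.36 times. The genotypes overlapped, with means of 0.0253% ± 0.0194 in controls (SD, n = 3) and 0.0112% ± 0.00684 in cKO mice (SD, n = 4). Without A4 the control mean was 0.0141%. In bulk tissue, fewer red cells and less globin RNA per red cell cannot be told apart.

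**Figure D1:**
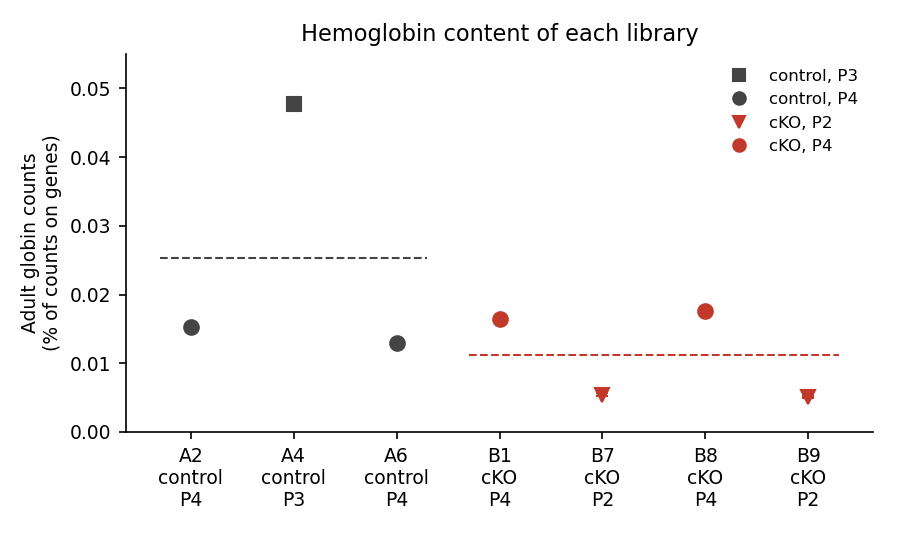
Counts of the 4 adult globin genes as a percentage of the counts on genes (vertical axis) in each library (horizontal axis, with genotype and postnatal age); points are single mice, bars are 95% Wilson intervals, mostly smaller than the points, and dashed lines are genotype means. Control A4 stands highest at 0.0477%, the P4 mice of both genotypes lie from 0.0129% to 0.0176%, and the P2 cKO mice B7 and B9 lie lowest.

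The alpha globins *Hba-a1* (ENSMUSG00000069919.7, chr11:32283511-32284465, plus strand) and *Hba-a2* (ENSMUSG00000069917.7, chr11:32296489-32297298, plus strand) supply the alpha chain of fetal and adult hemoglobin. *Hba-a1* was at 23.3, 109 and 18.9 CPM in the controls A2, A4 and A6, and at 28.9, 6.75, 31.5 and 8.26 CPM in the cKO mice B1, B7, B8 and B9. Its level in A4 was 3.46 times that of the next library, while the genotypes overlapped. *Hba-a2* was at 9.66, 44.6 and 14.1 CPM in those controls and at 16.0, 4.78, 22.01 and 5.16 CPM in those cKO mice. It showed the same order at the extremes, with A4 highest and both P2 mice lowest. Group means were 50.3 ± 50.8 CPM in controls (SD, n = 3) and 18.8 ± 13.2 CPM in cKO mice (SD, n = 4) for *Hba-a1*. For *Hba-a2* they were 22.8 ± 19.0 and 11.98 ± 8.46 CPM, so that each control SD was close to its mean.

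These alpha globin genes are nearly identical, and their separate values are uncertain. Their coding sequences differ at 1 of 426 bases, C381T, where the first base is that of *Hba-a1*, the second that of *Hba-a2*, and the position is counted from the A of the start codon. Of the 100-base windows of the *Hba-a1* transcript, 56.5% also occur in *Hba-a2*, and 74.5% of those of *Hba-a2* occur in *Hba-a1*. Read pairs that aligned to more than 1 place were not given to a gene, and these made up 8.14% to 11.1% of all counted pairs, with the lowest shares in the P2 libraries (8.14% in B7 and 8.33% in B9). How many of them were globin reads was not tested. *Hba-a2* took 29.35%, 29.1% and 42.8% of the alpha globin counts in A2, A4 and A6, and 35.6%, 41.5%, 41.1% and 38.4% in B1, B7, B8 and B9. Their Wilson half-widths were at most 3.58 percentage points, so that the gap between A6 and the other controls exceeded counting error. The genotype means of this share, 33.7% ± 7.85 (SD, n = 3) and 39.2% ± 2.71 (SD, n = 4), differed by less than the control SD.

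The adult beta globins *Hbb-bs* (ENSMUSG00000052305.6, chr7:103826534-103828096, minus strand) and *Hbb-bt* (ENSMUSG00000073940.3, chr7:103812524-103813996, minus strand) encode the beta chain. *Hbb-bs* was at 98.7, 274 and 83.9 CPM in the controls A2, A4 and A6, and at 101, 38.0, 106 and 34.5 CPM in the cKO mice B1, B7, B8 and B9. This gene alone took 57.0% to 67.2% of the adult globin counts. *Hbb-bt* was at 17.7, 53.4 and 7.99 CPM in those controls and at 19.4, 7.71, 10.95 and 4.04 CPM in those cKO mice. Again A4 was highest, but A6 and the P2 mouse B7 were close to each other. Group means were 152 ± 106 CPM in controls (SD, n = 3) and 69.8 ± 38.8 CPM in cKO mice (SD, n = 4) for *Hbb-bs*. For *Hbb-bt* they were 26.4 ± 23.9 and 10.5 ± 6.54 CPM.

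Within the beta pair, *Hbb-bt* split the libraries in a way that followed neither genotype nor age. It took 15.2%, 16.3% and 8.70% of the adult beta globin counts in A2, A4 and A6, and 16.1%, 16.9%, 9.38% and 10.5% in B1, B7, B8 and B9. A2, A4, B1 and B7 thus lay from 15.2% to 16.9%, and A6, B8 and B9 from 8.70% to 10.5%, with Wilson half-widths of at most 1.39 percentage points. The genotype means were 13.4% ± 4.12 in controls (SD, n = 3) and 13.2% ± 3.82 in cKO mice (SD, n = 4). Like the alpha pair, these genes are uncertain as single values, with a single coding difference of 441 bases (C417T, *Hbb-bs* base first) and 54.8% to 62.6% of their 100-base windows shared.

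Alpha globins made up 22.04%, 31.9% and 26.4% of the adult globin counts in A2, A4 and A6. They made up 27.2%, 20.1%, 31.4% and 25.8% in B1, B7, B8 and B9, with Wilson half-widths of at most 1.5 percentage points. Beta globin counts thus exceeded alpha globin counts in every library, by 2.13 times in A4 to 3.97 times in B7, and per kilobase of exon by 2.14 to 3.91 times. The exon lengths include the stretches shared within each pair, and the part of these in the ratios was not tested. The genotype means of the alpha share overlapped, at 26.8% ± 4.95 (SD, n = 3) and 26.1% ± 4.66 (SD, n = 4).

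**Figure D2:**
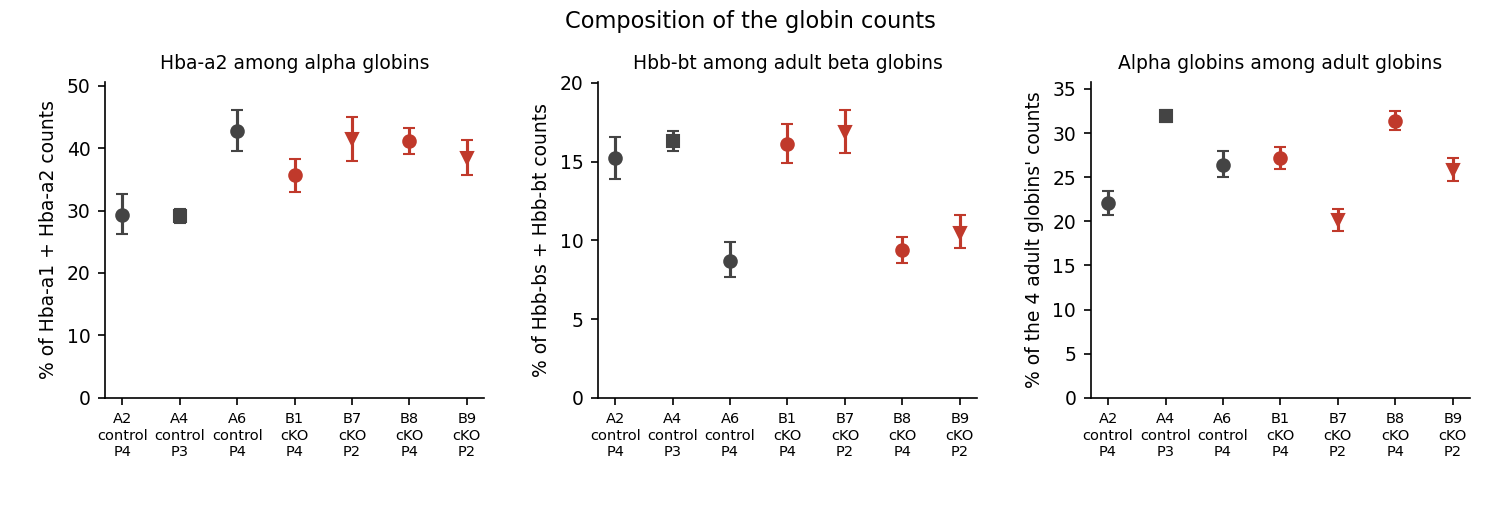
Share of *Hba-a2* among alpha globin counts, of *Hbb-bt* among adult beta globin counts and of both alpha globins among adult globin counts (vertical axes, percent) in each library (horizontal axes); points are single mice, colored by genotype and shaped by age, and bars are 95% Wilson intervals. The *Hbb-bt* share lies from 15.2% to 16.9% in A2, A4, B1 and B7 and from 8.70% to 10.5% in A6, B8 and B9.

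The embryonic globin *Hbb-y* (ENSMUSG00000052187.4, chr7:103851749-103853216, minus strand), which pairs with alpha-type chains in primitive red cells, was almost absent. It had 2 counts in control A2 and 0 in A4 and A6. In the cKO mice B1, B7, B8 and B9 it had 1, 2, 1 and 10 counts, or 0.0356, 0.0310, 0.0246 and 0.117 CPM. B9 was thus the only library above the level of 3 counts, which is 0.0352 CPM there. As a share of the beta-type globin counts, *Hbb-y* reached 0.0710% in A2 and 0.304% in B9, with a Wilson interval of 0.165% to 0.559% for B9. The 0 counts in A4 and A6 allow shares of up to 0.0229% and 0.119% when the limit is set at 3 counts, and of up to 0.0293% and 0.152% by the Wilson interval. Genotype means were 0.0237% ± 0.0410 (SD, n = 3) and 0.106% ± 0.134 (SD, n = 4), which overlap, and without B9 the cKO mean was 0.0395%. Another embryonic beta-type globin, *Hbb-bh1*, had 5 counts in A2, 2 in B1 and 0 elsewhere, and the embryonic alpha-type globin *Hba-x* had 0 counts in all 7 libraries. Together the embryonic globins held at most 0.226% of the globin counts of a library, so the counted hemoglobin RNA was of the adult kind in each mouse from P2 to P4.

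*Alas2* (ENSMUSG00000025270.13, chrX:150547375-150570638, plus strand) encodes the erythroid enzyme that opens heme synthesis. It was at 6.88, 14.3 and 6.82 CPM in the controls A2, A4 and A6, and at 12.2, 4.30, 8.59 and 5.73 CPM in the cKO mice B1, B7, B8 and B9. A4 was highest and both P2 mice lowest, as for the globins, but the range was narrower, with 3.32 times between the extremes against 7.945 to 16.1 times for the adult globins. The genotype means were 9.32 ± 4.27 CPM (SD, n = 3) and 7.72 ± 3.51 CPM (SD, n = 4). Relative to globin, *Alas2* was lowest in A4, with 2.96 CPM per 100 CPM of adult globin, and highest in the P2 mouse B9, with 11.04. The other libraries ranged from 4.61 to 7.50.

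*Slc4a1* (ENSMUSG00000006574.15, chr11:102348824-102366203, minus strand) encodes band 3, the anion exchanger that anchors the red cell membrane to its skeleton. It was at 0.995, 1.82 and 0.730 CPM in the controls A2, A4 and A6, and at 3.74, 0.620, 0.935 and 0.576 CPM in the cKO mice B1, B7, B8 and B9. Here B1 rather than A4 was highest, on 105 counts, against 20 to 73 counts in the other libraries. The genotype means were 1.18 ± 0.570 CPM (SD, n = 3) and 1.47 ± 1.52 CPM (SD, n = 4), and without B1 the cKO libraries ranged from 0.576 to 0.935 CPM. B1 also held the most *Slc4a1* relative to globin, 2.265 CPM per 100 CPM of adult globin, where the other libraries ranged from 0.379 to 1.11.

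**Figure D3:**
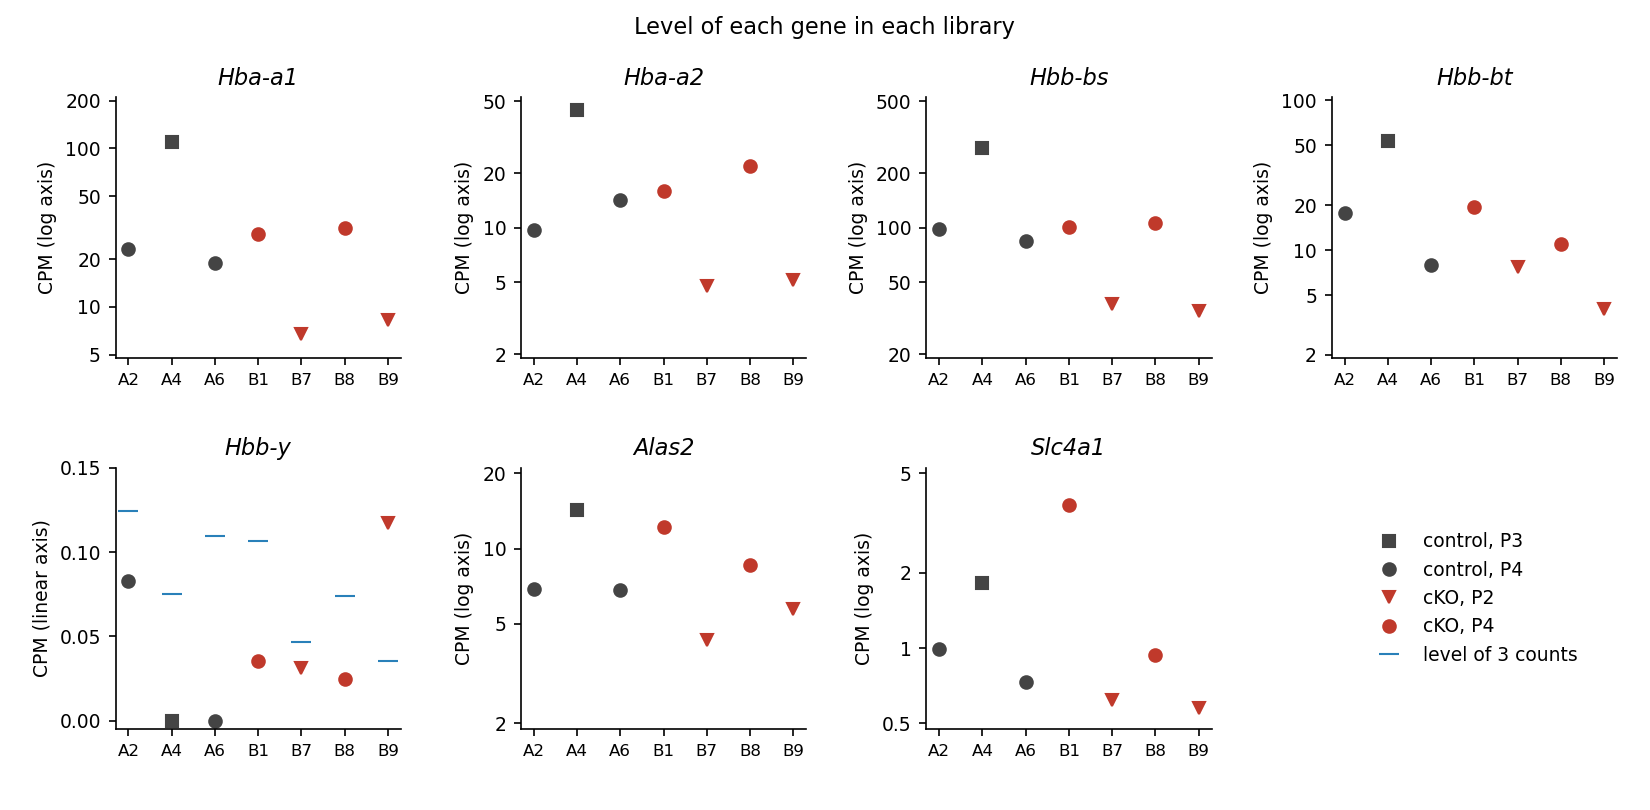
Level of each of the 7 genes in CPM (vertical axes, logarithmic except for *Hbb-y*) in each library (horizontal axes); points are single mice, colored by genotype and shaped by age, and blue dashes mark the level of 3 counts in each library for *Hbb-y*. Control A4 is highest for the 4 adult globins and *Alas2*, cKO B1 for *Slc4a1*, and the P2 mice B7 and B9 are the lowest cKO libraries for each gene but *Hbb-y*.

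Per kilobase of exon and over all libraries, *Hbb-bs* led with 137 ± 104 CPM per kb (SD, n = 7). *Hba-a1* followed with 39.8 ± 43.2, *Hba-a2* with 24.9 ± 20.7 and *Hbb-bt* with 24.6 ± 24 CPM per kb, and these neighbours did not differ beyond their spread. *Alas2* had 3.50 ± 1.5, *Slc4a1* 0.275 ± 0.232 and *Hbb-y* 0.0658 ± 0.0687 CPM per kb. By this measure the order *Hbb-bs*, *Hba-a1*, *Hba-a2* held in each of the 7 libraries, whereas *Hbb-bt* lay above *Hba-a2* in some and below it in others. The measure divides by the whole exon length, although pairs that aligned to more than 1 place were not counted. Shared 100-base windows made up 56.5% of *Hba-a1* and 74.5% of *Hba-a2*, and their order per countable base was not tested. The adult globins varied together across libraries, with Pearson's r of log2 CPM from 0.808 to 0.989 over their 6 pairs (n = 7), and from 0.591 to 0.977 without A4 (n = 6). *Alas2* had r of 0.817 to 0.917 with them (0.666 to 0.866 without A4), and *Slc4a1* 0.605 to 0.726 (0.544 to 0.769 without A4). These are descriptions of 7 libraries in which the P2 mice and A4 hold the extremes, and the genes of a library share its depth and scaling.

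The genotype comparison asked whether the loss of *Brn3b* in the midbrain went with a change in these genes. The adult globins averaged 37.4% to 52.5% of the control mean in cKO mice, but their spread was as wide. The log2 fold change of cKO against control was −1.43 ± 0.70 for *Hba-a1* (SE, edgeR adjusted p = 0.190) and −0.94 ± 0.63 for *Hba-a2* (adjusted p = 0.315). It was −1.13 ± 0.50 for *Hbb-bs* (adjusted p = 0.165) and −1.34 ± 0.63 for *Hbb-bt* (adjusted p = 0.176). *Alas2* had −0.29 ± 0.39 (adjusted p = 0.622) and *Slc4a1* 0.24 ± 0.69 (adjusted p = 0.824). *Hbb-y* had too few counts to be tested, so 6 of the 7 genes entered the fit, and edgeR called 0 of these 6, against 0.00458% of the 21817 genes tested. None of the 6 had an unadjusted p under 0.05, against 6633 of the 21817 genes tested. DESeq2 called 0, against 5.5% of its 36248 genes, and limma-voom called 1, *Hbb-bs* (adjusted p = 0.0338, with a range over the alternatives of 0.00194 to 0.989). Limma-voom called 48.5% of all genes tested, a larger share than among these 6. Their median log2 fold change was −1.04, against 0.0025 over all genes tested. The genotypes overlapped for each of the 7 genes, while 8.01% of the genes tested were lower without overlap in cKO mice and 6.03% were higher. Exact permutation tests over the 35 splits of the mice gave two-sided p = 0.343 for each adult globin, 0.457 for *Hbb-y*, 0.629 for *Alas2* and 0.971 for *Slc4a1*, where the smallest p they allow is 0.0571.

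The globin difference depended on which mice were compared. The comparisons in this paragraph share the controls A2 and A6, and those that keep A4 share it as well. Without A4 the log2 fold changes were −0.17, 0.0015, −0.39 and −0.30 for *Hba-a1*, *Hba-a2*, *Hbb-bs* and *Hbb-bt*. With all 7 mice and postnatal day as a covariate they stayed close to the unadjusted fit, at −1.53, −1.003, −1.13 and −1.35, with edgeR adjusted p from 0.2715 to 0.348. Among P4 mice only, with 2 per genotype, all 6 genes were higher in cKO mice, by 0.52 ± 0.21 for *Hba-a1*, 0.68 ± 0.28 for *Hba-a2*, 0.18 ± 0.18 for *Hbb-bs* and 0.24 ± 0.42 for *Hbb-bt* (log2 fold change ± SE). *Alas2* had 0.60 ± 0.28 and *Slc4a1*, the largest, 1.42 ± 0.68 there. EdgeR called 0 of the 6 genes, as of all 20702 genes tested (0%), with an adjusted p of 0.989 for each of the 6, and 2 had an unadjusted p under 0.05, against 0.744% of all genes on the higher side. All 3 controls, A4 among them, against the P2 cKO mice gave −2.76 for *Hba-a1*, −2.22 for *Hba-a2*, −2.09 for *Hbb-bs*, −2.20 for *Hbb-bt* and −0.92 for *Alas2*, and these 5 were called lower, where 24% of the genes tested were. Without B8, the cKO library that lay with the controls, edgeR called *Hba-a1* (adjusted p = 0.0323), *Hba-a2* (0.0415) and *Hbb-bs* (0.0213) lower, and 23.1% of the genes tested were called lower as well. Over all alternatives the adjusted p ranged from 0.00473 to 0.989 for *Hba-a1*, from 0.00493 to 0.999 for *Hba-a2* and from 0.00194 to 0.989 for *Hbb-bs*. In the main genotype fit of all 7 mice, short coding genes had a median log2 fold change of −0.76, against 0.0077 over all coding genes. The part of gene length in the globin values was not tested.

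Age was compared among the cKO mice. The adult globins of the P2 mice averaged 24.9% of the P4 mean for *Hba-a1*, 26.15% for *Hba-a2*, 35.1% for *Hbb-bs* and 38.75% for *Hbb-bt*. *Alas2* averaged 48.1% and *Slc4a1* 25.6%. In all 6 genes both P2 mice were lower than both P4 mice, which was so for 27.1% of the 22725 genes tested. The log2 fold change of P2 against P4 was −2.01 ± 0.24 for *Hba-a1*, −1.94 ± 0.28 for *Hba-a2*, −1.51 ± 0.20 for *Hbb-bs* and −1.37 ± 0.39 for *Hbb-bt* (SE). It was −1.05 ± 0.31 for *Alas2* and −1.95 ± 0.64 for *Slc4a1*, which without B1 had −0.64 ± 0.56 (edgeR unadjusted p = 0.263). EdgeR called 0 genes in the whole table (0%), with adjusted p from 0.207 to 0.298 for these 6, although all 6 had an unadjusted p under 0.05 and a lower level at P2, against 9.29% of the genes tested. DESeq2 called 4 of them lower, against 0.758% of its 35103 genes, with adjusted p of 4.5e-09 for *Hba-a1*, 5.53e-07 for *Hba-a2*, 1.59e-06 for *Hbb-bs* and 0.0351 for *Hbb-bt*. Limma-voom called 3, against 0.0572% of all genes tested (13 of 22725), with adjusted p of 0.0131 for *Hba-a1*, 0.0270 for *Hba-a2* and 0.0155 for *Hbb-bs*. Over the alternatives the adjusted p ranged from 4.5e-09 to 0.2115 for *Hba-a1*, from 3.59e-07 to 0.297 for *Hba-a2*, from 3.72e-08 to 0.4055 for *Hbb-bs* and from 0.00369 to 0.941 for *Hbb-bt*.

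Other values moved with age in the same libraries. Short coding genes had a median log2 fold change of −0.86 at P2, against 0.015 over all coding genes, and the P2 libraries were the deepest. With only 2 mice per age, the part of depth or gene length in the age difference was not tested. *Hbb-y* had 12 counts at P2 and 2 at P4 and overlapped between the ages.

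The wider erythroid program was read from gene lists, in which edgeR called 0 genes between genotypes; over the whole table it called 1 gene, with 6633 at an unadjusted p under 0.05, DESeq2 called 1994 and limma-voom 10583. Of the 10 globin genes, 5 were tested, with 4 lower and 1 higher in cKO mice (median −1.13). Of 9 heme synthesis enzymes, 7 were lower and 2 higher (median −0.26), and 2 of the lower ones had an unadjusted p under 0.05. The leading enzymes per kb, *Alad*, *Urod* and *Ppox*, had log2 fold changes of −0.40, −0.58 and −0.26. Among 4 genes of mitochondrial iron and heme transport, 3 were lower and 1 higher (median −0.23), led by the iron-sulfur cluster gene *Glrx5* at −0.77 ± 0.24 (SE, edgeR adjusted p = 0.1375). The medians of these lists stand against 0.0025 over all genes tested. Brain cells also make heme, so these enzymes other than the erythroid *Alas2* do not mark red cells.

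Genes of the red cell membrane went the other way, with 6 of 10 tested higher in cKO mice and a median of 0.30. Their summed level was 262, 239.5 and 267.5 CPM in A2, A4 and A6, and 376, 389, 263 and 380.4 CPM in B1, B7, B8 and B9, so that B8 again lay with the controls. The sum was carried by *Sptb*, *Epb41* and *Ank1*, skeleton genes that neurons also express, at 0.36, 0.57 and 0.55 on the log2 scale. Red cell genes proper were near the floor, as 8 of the 13 averaged under 1 CPM. The erythroid transcription factors were led by *Tal1*, *Lmo2* and *Bcl11a*, which brain cells also express, with 4 of 8 tested higher and 4 lower (median −0.0003). The erythroid regulators *Gata1* and *Klf1* reached only 0.0985 and 0.511 CPM. Late erythroid genes had 10 of 13 lower and 3 higher (median −0.20), led by *Prdx2*, *Mkrn1* and *Cat*, of which *Prdx2* had −0.61 and the others −0.04 and 0.07. Heme and hemoglobin clearance had 3 higher and 3 lower (median 0.10), with 89.5% of its level on the receptor *Lrp1* at 0.71.

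The markers of other blood cells gave values to set beside hemoglobin. Platelet genes summed to 32.2, 47.8 and 42.7 CPM in A2, A4 and A6, and to 22.6, 16.7, 40.15 and 23.2 CPM in B1, B7, B8 and B9. A4 was highest, as for hemoglobin, and B7 lowest, with B1 beside the P2 mice. Of 5 platelet genes tested 4 were lower and 1 higher (median −0.50), with 51.3% of the level on *Gp1bb*, and the defining *Pf4* ranged from 1.47 to 6.79 CPM. Neutrophil genes had 2 of 3 tested lower and 1 higher (median −1.28). The lower genes, *S100a8* and *S100a9*, were at 1.17 and 1.28 CPM in control A6, against at most 0.295 and 0.424 CPM in any other library. The higher gene, *Ngp*, was the only one with an unadjusted p under 0.05 (log2 fold change 1.66 ± 0.64, SE, edgeR adjusted p = 0.140). Of the 21817 genes tested, 3653 were higher with such a p. *Ngp* rested on 98 counts over all libraries, at 0.0415 to 0.493 CPM, and 7 of the 8 neutrophil genes averaged under 1 CPM. The neutrophil genes summed to 0.539, 1.45 and 11.1 CPM in the controls and 0.569, 0.698, 1.85 and 1.66 CPM in the cKO mice. The high sum in A6 was mostly *Lcn2*, at 8.10 CPM. Lymphocyte genes had 3 of 3 tested lower (median −0.47), and their sum of 4.24 to 7.88 CPM lay largely on *Ighm* (84.1%). Of the 7 lymphocyte genes, 6 averaged under 1 CPM, among them the tested *Cd79a* and *Cd79b*, on 90 and 115 counts over all libraries. The part of blood cells other than red cells in the hemoglobin differences was not tested.

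Vessel and tissue markers differed in how far they shared the order of hemoglobin. The 7 endothelial genes summed to 145, 227 and 180 CPM in A2, A4 and A6, and to 152, 165.5, 203 and 213 CPM in B1, B7, B8 and B9, so that the P2 mouse B9 was second highest. Of these, 5 were higher and 2 lower in cKO mice (median 0.37), and the most abundant, *Cldn5*, had −0.78, with its highest level in A4 (101.9 CPM) and its lowest in B7 (28.7 CPM). Microglia and macrophage genes had 3 higher and 3 lower (median −0.05) and sums of 77.9 to 98.4 CPM, led by *Csf1r*. Globins of other cells, *Cygb*, *Ngb* and *Mb*, had 2 lower and 1 higher (median −0.51). *Cygb* made up 86.6% of their level and was at 62.6, 75.0 and 60.3 CPM in A2, A4 and A6, and at 46.3, 41.1, 60.9 and 36.95 CPM in B1, B7, B8 and B9, so that A4 was highest and the P2 mice lowest, as for hemoglobin. Dorsal midbrain genes had 7 higher and 3 lower (median 0.33). Of the markers of telencephalon and cerebellum, 2 of 5 were tested and both were lower (median −0.69), led by *Neurod6* at 9.15 to 14.7 CPM.

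Outside these lists, the genes whose log2 CPM was most like the log2 summed CPM of the adult globins over the 7 libraries were *Popdc3*, *Galnt18*, *Klhl25*, *Pelo*, *Dffa*, *Kcnn2*, *Sema3b*, *Rab3d*, *Eva1b* and *Ahcy*. Their Pearson's r ran from 0.988 for *Popdc3* to 0.967 for *Ahcy*, and Spearman's rho was 1 for *Popdc3* and 0.75 for *Ahcy*. Without the farthest libraries A4 and B9, r was 0.989 for *Popdc3* and 0.888 for *Ahcy* (n = 5). Of 16974 genes compared, 285 had r over 0.9 and the median r was 0.022. *Eva1b* ranged from 1.29 CPM in B9 to 5.29 CPM in A4, and *Galnt18* only from 15.5 to 25.7 CPM.

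The adult globins varied together and *Hbb-y* was near its floor, so stretches upstream of their starts are shown to let their promoters be compared. RefSeq promoters (GRCm38.p6) matched 6 of the 7 genes, with *Slc4a1* named only. Motifs were searched on both strands in the 110 bases from −120 to −11 of each start and are in capitals: CCAAT, held by 20.3% of the 32851 RefSeq promoters over the same stretch, CACCC (29.5%), the TATA-type ATATAA (4.27%) and the variant CATAAA (4.87%), chosen after the *Hbb-y* sequence had been seen. Each stretch is upstream of the RefSeq start and outside annotated exons, 5′ to 3′ on the strand of the gene. *Hba-a2* (chr11:32296372-32296481, plus strand) stands for both alpha globins, whose upstream sequences share an identical run of 247 bases. *Hbb-bs* (chr7:103827939-103828011, minus strand) is shown from −83, where an exon of another *Hbb-bs* transcript ends, and *Hbb-y* lies at chr7:103853218-103853327 (minus strand).
Hba-a2: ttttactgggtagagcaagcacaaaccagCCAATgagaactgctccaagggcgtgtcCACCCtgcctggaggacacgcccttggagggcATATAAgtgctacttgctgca
Hbb-bs: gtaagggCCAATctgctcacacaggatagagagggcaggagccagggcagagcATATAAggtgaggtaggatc
Hbb-y: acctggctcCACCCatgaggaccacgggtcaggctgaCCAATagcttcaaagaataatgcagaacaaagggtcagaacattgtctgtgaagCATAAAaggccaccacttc

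All 5 globin promoters held CCAAT and CACCC within the 110 bases. The 4 adult globins held ATATAA between −31 and −23, whereas *Hbb-y* held CATAAA from −29 to −24 and no ATATAA. *Hbb-bt* held 3 copies of CCAAT on either strand, of which 2 are on the reverse strand. *Alas2* held 3 separate copies of CACCC on the reverse strand between −40 and −26, and no CCAAT or TATA-type match. The erythroid motif GATAAG was found in the 250 bases before the start in each of the 4 adult globins, between −209 and −177, and in 6.55% of all promoters over that length. *Hbb-y* and *Alas2* had no GATAAG match in that window. The coding sequence of *Hbb-y* shares 74.4% of its bases with *Hbb-bs*, and its transcript shares no exact 100-base window with another gene. Whether trimmed or mismatched reads of the adult globins were counted on *Hbb-y* was not tested. These matches describe the letters of the sequences only.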

How the data were processed

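The deposited values are raw counts of read pairs on genes, which the authors obtained by trimming 100-base pairs from strand-specific libraries, TopHat2 and Bowtie 2 alignment (GRCm38.p5) and HTSeq with GENCODE vM15. The strand option of HTSeq is not given in the sources used here. Pairs not assigned to a gene made up 31.0% to 38.2% of each library and were left out. Symbols, positions and exon lengths came from GENCODE vM21 (52489 identifiers matched, 147 did not).

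Counts were analysed with edgeR 4.0.16 in R 4.3.3 (filterByExpr with minimum count 10 and minimum total 15, TMM, glmQLFit, glmQLFTest, Benjamini-Hochberg adjusted p under 0.05), with DESeq2 1.42.0 and limma 3.58.1 as alternatives. CPM used TMM library sizes, and log2 CPM a prior count of 2. The edgeR step was run on simulated counts, drawn for each gene independently with known changes. Those counts held neither the division of the libraries nor the shift of short genes described above. The run therefore cannot show how the test behaves under them. Exact permutation tests were run with SciPy 1.17.1. Replicates were separate mice, and each pair within a genotype differed by more than sampling noise (chi-square per degree of freedom from 8.24 to 263). Named genes were the 7 genes, the 3 leading genes per kb of each list and the 10 genes most like summed adult globin. The members and the 15 lists (125 genes, 124 matched) were chosen with earlier results of these data known.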

Additional observations from a re-analysis of the deposited data

Results flagged for a closer look

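Among the 4 cKO mice, 6 of 33 results examined had a single mouse far from the others, where chance gives about 1 in 20, or 1.65 of 33. *Hbb-y* was at 0.1175 CPM in B9, on 10 counts, against 0.0246 to 0.0356 CPM in the other cKO mice and at most 0.0829 CPM in controls. Its share of beta-type globin counts was 0.304% in B9, against 0.0211% to 0.0678% in the other cKO mice; both values rest on the same 10 counts. *Slc4a1* was at 3.737 CPM in B1, against 0.576 to 0.935 CPM in the other cKO mice and 0.73 to 1.82 CPM in controls.

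B8 stood apart from the other cKO mice in 3 summed levels and lay at or near the control range in each. Red cell membrane genes summed to 263.2 CPM in B8, against 376 to 389 CPM in the other cKO mice and 239 to 268 CPM in controls. Heme and hemoglobin clearance genes summed to 474.1 CPM, against 752 to 790 CPM and 443 to 471 CPM. Lymphocyte genes summed to 7.877 CPM, against 4.24 to 4.63 CPM and 5.1 to 7.74 CPM, and *Ighm* alone was at 6.28 CPM in B8. The cause was not tested for any of these values.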

How the results depend on the processing

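Of the genotype values of single genes under other settings, 93 kept direction and side of the threshold, 9 passed it with the same direction and 12 turned sign; of the age values, 34 kept both and 26 passed it. Among P4 mice only, the log2 fold change turned to 0.52 for *Hba-a1*, 0.68 for *Hba-a2*, 0.18 for *Hbb-bs*, 0.24 for *Hbb-bt* and 0.60 for *Alas2*. *Alas2* was at 0.16 against the P4 cKO mice, and *Slc4a1* at −0.18 with limma-voom and −1.02 against the P2 cKO mice. Leaving out each mouse in turn, the genotype log2 fold change ranged from −1.83 to −0.17 for *Hba-a1*, from −1.45 to 0.0015 for *Hba-a2*, from −1.42 to −0.39 for *Hbb-bs*, from −1.80 to −0.30 for *Hbb-bt*, from −0.59 to 0.16 for *Alas2* and from −0.76 to 0.72 for *Slc4a1*, with the values above 0 for *Hba-a2* and *Alas2* without A4 and the lowest for *Slc4a1* without B1; without A6 *Slc4a1* was at −0.006, and among P4 mice only at 1.42. The age log2 fold change ranged from −2.18 to −1.87 for *Hba-a1*, −2.14 to −1.68 for *Hba-a2*, −1.58 to −1.46 for *Hbb-bs*, −1.90 to −0.90 for *Hbb-bt*, −1.29 to −0.77 for *Alas2* and −2.63 to −0.64 for *Slc4a1*. The cause was not tested.

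The 1 gene called between genotypes became 1994 with DESeq2, 10583 with limma-voom, 0 among P4 mice only (245 at an unadjusted p under 0.05), 10425 against the P2 cKO mice and 2 with hemoglobin as a covariate. Leaving out each mouse gave 1 to 9866, the highest without B8. The 0 genes called by edgeR between ages (3565 at an unadjusted p under 0.05) became 309 with DESeq2, 13 with limma-voom, 1273 with at least 1 count in any library and 5 with all 7 mice. Leaving out each mouse gave 25 to 8237, the highest without B1, with 38 without B7 and 160 without B8; the lone mouse left at an age is then assumed to vary like the others. The *Hba-a2* share in cKO mice was 43.9% per kb of exon, which divides by a shorter gene. No paired analysis was possible because no label ties a control mouse to a cKO mouse.

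With 3 and 4 mice, two-sided permutation tests of single genes cannot reach 0.05, and *Hbb-y* and *Slc4a1* rest on at most 10 and 105 counts a library.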
